A study of Homo sapiens with 12 samples.

Results

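A673 Ewing sarcoma cells exposed to 50 nM actinomycin D for 24 h were compared with cells given DMSO, the vehicle, for the same time. Each condition was measured on 2 Affymetrix HuGene 1.0 ST arrays, so 4 of the 12 arrays of the series carry the comparison, and all 18404 genes whose probe sets have a single gene symbol were described. The other arrays hold untreated cells at 0 h, cells given 5 nM actinomycin D for 24 h, and cells carrying an shRNA against FLI1 or lacZ at 48 h. Only the untreated and 5 nM arrays are set beside the high dose here. All groups are the same established cell line, which carries the EWSR1-FLI1 fusion, and the study's methods state duplicate treatment for DMSO and 5 nM but do not describe it for 50 nM. P-values set a change against the spread between arrays of the same group, estimated over all 6 groups of the series together. At 50 nM that spread may be technical alone.

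Actinomycin D intercalates into DNA at GpC steps and stops elongating RNA polymerases. At low doses it is known above all for blocking RNA polymerase I, which makes ribosomal RNA, whereas higher doses stop transcription by all nuclear polymerases. After such a block an RNA persists according to its stability: messages of many transcription factors and signalling regulators decay within a short time, whereas those of ribosomal proteins, metabolic enzymes and structural proteins last long. Equal amounts of RNA went on each array and the values were scaled to a common distribution, so the arrays show which RNAs were lost or kept relative to the others, and a loss shared by all RNAs is not visible. In a bulk sample, fewer cells and less RNA per cell cannot be told apart.

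The cells were Ewing sarcoma-like in both conditions. All 9 measured markers of the tumour lay above the array median on every array. Of these markers 4 fell, NKX2-2 by 2.21, BCL11B by 1.18, FLI1 by 0.95 and STEAP1 by 0.46, and 2 rose, CD99 by 0.24 and PRKCB by 0.19, signs that turn to -0.02 and -0.07 when the values are centred on ribosomal protein genes. Their summed signal was 14.60 to 14.63 on the log2 scale with DMSO and 14.56 to 14.59 at 50 nM. Of 9 epithelial, 10 blood and 8 endothelial markers, 3, 2 and 1 to 2 lay above the array median. The summed signal of the blood markers was 10.45 and 10.56 with DMSO against 11.17 and 11.14 at 50 nM, and 5 of the 10 rose, CD68 and CD79A most. The epithelial sum was 11.73 and 11.78 against 12.05 and 11.90, with 1 marker rising, and the endothelial sum 9.95 and 9.99 against 10.37 and 10.30, with 4 rising. The blood markers had 2 rises without DMSO array 1 and 3 without 50 nM array 1. The endothelial markers had 2 without 50 nM array 1 or DMSO array 2 and 1 without DMSO array 1. The tumour markers had 0 without 50 nM array 1 or DMSO array 1 and 1 without either other array. The part of other cells in the results was not tested. Array medians lay between 6.67 and 6.83, the correlation over genes was 0.9949 to 0.998 within groups and 0.971 to 0.974 between 50 nM and DMSO arrays. Between DMSO and untreated cells 1 gene was higher and 0 were lower by limma at a fold over 2, with 1383 genes at an unadjusted p under 0.05. The gene was FOSB, an immediate-early transcription factor, at 6.93 and 6.85 in untreated cells and 8.38 and 8.15 with DMSO.

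Far more genes were lost than gained by a large factor. At a fold over 2 and an adjusted p under 0.01, 990 genes (5.38% of those tested) were lower at 50 nM and 110 (0.598%) were higher. With the fold threshold dropped and an adjusted p under 0.05, 4741 genes rose (25.8%) and 4283 fell (23.3%), and 9380 did not pass. The median change over all genes was 0.098 on the log2 scale, with a range of -2.65 to 3.24. When the values were centred on 58 cytoplasmic ribosomal protein genes, the median of all genes moved by -0.26 to -0.16, and the counts became 55 higher and 1720 lower. The share of higher genes among the calls was then 3.1%, against 10.0% as deposited, so a small rise below is a rise relative to the bulk of the array and can vanish with another reference. Against the untreated arrays in place of DMSO, 125 genes were higher and 935 lower.

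The 12 largest falls were all of protein-coding genes. TMEM131L, a transmembrane protein, had the largest. Its log2 signal was 9.02 and 8.97 with DMSO and 6.26 and 6.42 at 50 nM, a change of -2.65 ± 0.10 (SE, n = 2 arrays per group; adjusted p = 5.2e-08, limma). MSH6, the mismatch recognition protein, read 9.81 and 9.96 with DMSO and 7.39 and 7.30 at 50 nM, and fell by 2.54 ± 0.08 (adjusted p = 3.2e-08). CHD1, a chromatin remodeller that travels with elongating polymerase, read 9.98 and 10.00 against 7.45 and 7.47 and fell by 2.53 ± 0.11. In each of these genes the 50 nM arrays lay below both DMSO arrays, as the choice of genes requires. JMJD1C, a Jumonji-domain protein, fell by 2.52 and FBXO42, a ubiquitin ligase substrate receptor, by 2.49. BRD10 fell by 2.46 and BCOR, the BCL6 corepressor, by 2.44. ZNF627, a zinc-finger protein, read 8.62 and 8.68 with DMSO and 6.25 on both 50 nM arrays. BLM, the helicase mutated in Bloom syndrome, fell by 2.38. WDR43, a subunit of the small-subunit processome in the nucleolus, fell by 2.37, from 11.10 and 11.26 to 8.84 and 8.77. FLRT2, a cell adhesion protein, fell by 2.36, and RPP38, a protein subunit of RNase P and RNase MRP, by 2.29. At 5 nM 9 of these 12 genes fell as well. The 5 nM changes were -0.79 for BCOR, -0.92 for BRD10, -1.10 for WDR43, -1.61 for FBXO42, -1.65 for both CHD1 and JMJD1C, -1.91 for TMEM131L, -1.92 for BLM and -2.69 for FLRT2. MSH6 and ZNF627 did not pass the test at 5 nM, with changes of -0.16 (adjusted p = 0.13) and 0.15 (adjusted p = 0.18), and RPP38 rose by 0.44.

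**Figure D1:**
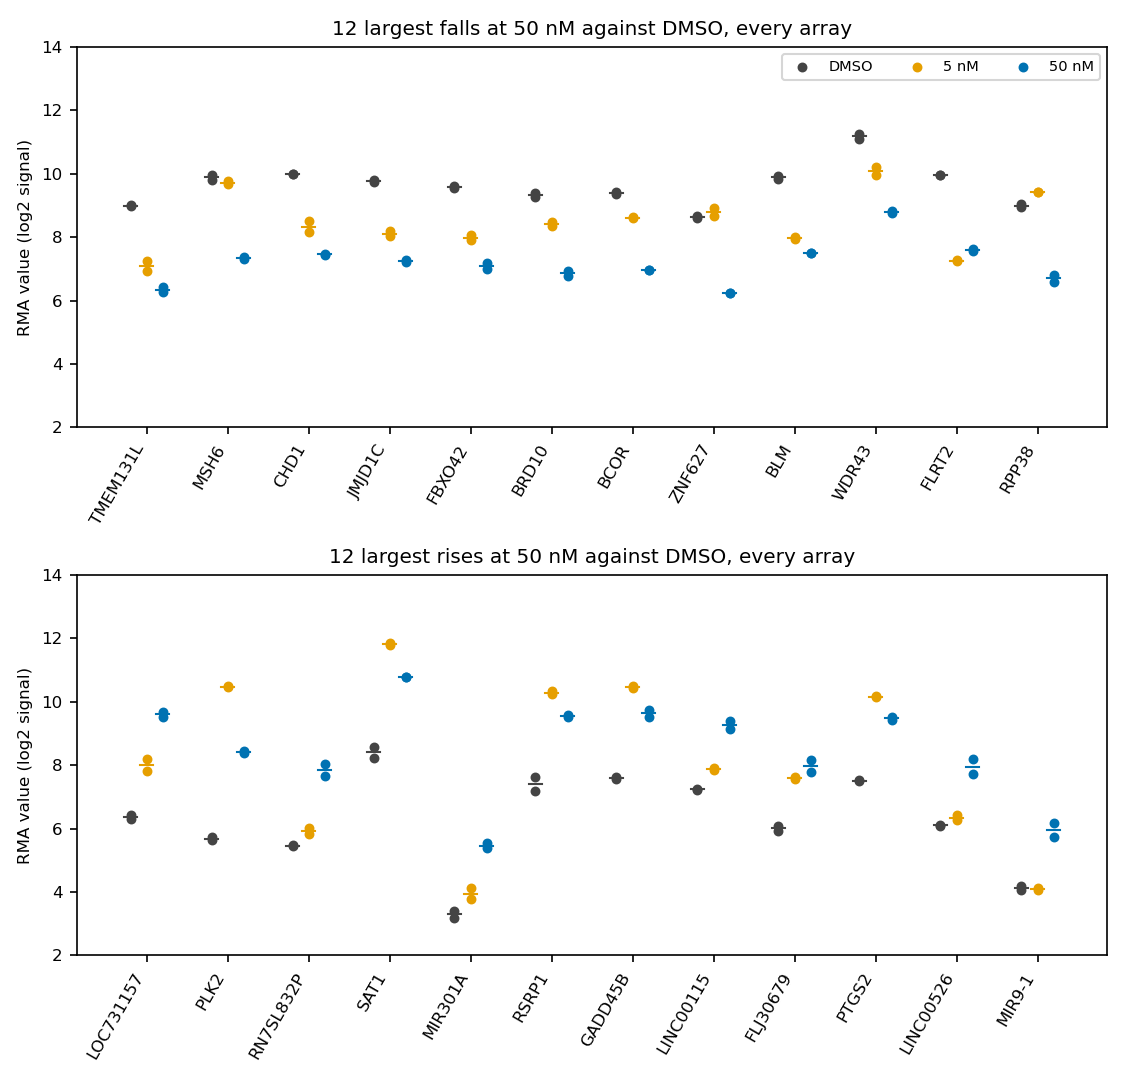
RMA values (log2 signal) on every DMSO, 5 nM and 50 nM array for the 12 largest falls and the 12 largest rises at 50 nM against DMSO; dots are arrays and dashes the mean of 2. The 50 nM arrays lie apart from the DMSO arrays in all 24 genes, by -2.29 to -2.65 in the falls and by 1.84 to 3.24 in the rises, as the choice of genes requires.

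The genes that gained most were of mixed kinds, and only 5 of the 12 largest rises are protein-coding. LOC731157, an uncharacterized locus, rose from 6.42 and 6.31 to 9.53 and 9.68, by 3.24 ± 0.14 (SE, n = 2 arrays per group; adjusted p = 8.0e-08). PLK2, a stress-induced polo-like kinase and p53 target, rose from 5.74 and 5.63 to 8.45 and 8.38, by 2.73 ± 0.09. SAT1, the rate-limiting enzyme of polyamine catabolism, rose from 8.59 and 8.23 to 10.78 on both arrays. RSRP1, an arginine- and serine-rich protein, rose by 2.15, GADD45B, a stress-response gene, by 2.04 and PTGS2, the inducible cyclooxygenase, by 1.96. In each of these coding genes the value at 5 nM was higher still: the changes at 5 nM were 4.79 for PLK2, 3.41 for SAT1, 2.89 for RSRP1, 2.87 for GADD45B and 2.65 for PTGS2. The difference between the doses passed the test in all of them, from -2.06 for PLK2 (adjusted p = 2.1e-08) to -0.69 for PTGS2 (adjusted p = 5.6e-05). The noncoding members had the lower value at 5 nM. RN7SL832P, a pseudogene of the signal recognition particle RNA, rose by 2.39 and LINC00115 by 2.03, against 0.47 and 0.62 at 5 nM. LINC00526 rose by 1.85, whereas its change at 5 nM was 0.24 (adjusted p = 0.17), and FLJ30679 rose by 1.96 against 1.59 at 5 nM.

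Of the 6 probe sets with the brightest DMSO signal, 4 did not pass the test in the values as deposited. GAPDH, the glycolytic enzyme, read 13.65 and 13.64 with DMSO and 13.76 on both 50 nM arrays, a change of 0.11 (adjusted p = 0.15). TUBB, a tubulin, changed by -0.08 (adjusted p = 0.34), RPS28, a ribosomal protein, by 0.09 (adjusted p = 0.28) and FAF2, a ubiquitin pathway protein, by -0.05 (adjusted p = 0.56). The signs of GAPDH and RPS28 turn when the values are centred on ribosomal protein genes (-0.15 and -0.17), and those of TUBB and FAF2 when the medians are aligned. Under the ribosomal protein centring 3 of the 4 passed as falls by limma. TUBB fell by 0.34 (adjusted p = 0.0011), FAF2 by 0.31 (adjusted p = 0.0047) and RPS28 by 0.17 (adjusted p = 0.047). GAPDH did not pass (adjusted p = 0.098). HSPA8, the constitutive heat shock cognate chaperone, fell by 0.31, and H1-4, a linker histone, fell by 0.61 from 13.60 and 13.57 to 13.03 and 12.92.

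Losses concentrated among coding genes of intermediate signal. The signal of a probe set does not give the abundance of its RNA, and is used here only to order genes. Of coding genes with a mean signal of 8 to 9 over all arrays, 45.3% fell and 20.1% rose, with a median change of -0.17, and of those at 9 to 10, 44.3% fell. Among genes at 11 to 12, 20.8% fell and 35.3% rose, and above 12, 11.0% fell and 30.2% rose. Among dim genes falls were few: of those at 5 to 6, 2.91% fell and 22.6% rose, and the median change was 0.18. The deposited values carry no detection call, so which of these genes were above background is unknown. Centring on ribosomal protein genes turns the sign of the medians of the dim and of the brightest genes, to -0.08 at 5 to 6 and -0.15 above 12.

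The change also varied with the span of the gene, the distance from its first to its last base in RefSeq. Over 7447 coding genes with a mean signal above 8, the median change was 0.20 for spans under 5 kb, 0.01 at 10 to 20 kb, -0.20 at 50 to 100 kb and -0.31 at 100 to 200 kb. It was -0.24 above 200 kb, so the longest genes were not the ones lost most. In the shortest class 47.0% rose and 23.2% fell, and at 100 to 200 kb 11.2% rose and 54.4% fell. Spearman's rho between span and change across these genes was -0.279 and across all 16894 coding genes -0.286; genes are not independent replicates and the points share the same 4 arrays. Centring on ribosomal protein genes shifts the class medians to -0.06 under 5 kb and -0.57 at 100 to 200 kb and leaves rho unchanged. At 5 nM the medians ran from 0.38 under 5 kb to -1.05 at 100 to 200 kb and -1.44 above 200 kb, a far steeper gradient. The direct difference of the doses, 50 nM minus 5 nM, went from -0.19 in the shortest class to 0.69 and 1.14 in the longest, with a rho of 0.519 against span.

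**Figure D2:**
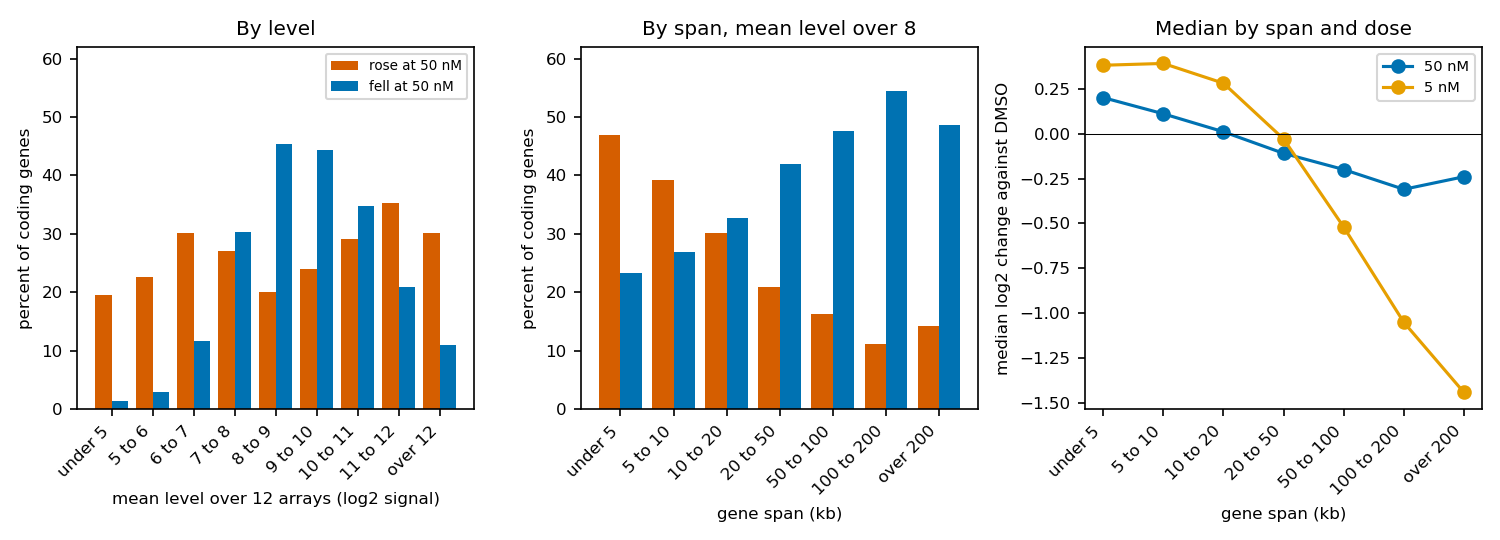
Percent of coding genes that rose or fell at 50 nM (limma, adjusted p under 0.05) by mean level over 12 arrays and by gene span, and the median log2 change against DMSO by span at both doses. Falls peak at a level of 8 to 10, and the 5 nM line drops to -1.44 above 200 kb where the 50 nM line stays at -0.24.

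The 6 genes furthest above their 5 nM level were all long genes that fell at the low dose. SYT1, the synaptic vesicle calcium sensor, spans 588027 bases. Its signal was 10.78 and 10.85 with DMSO and 10.54 and 10.51 at 50 nM, a fall of 0.29, against a fall of 3.51 at 5 nM. The direct difference was 3.23 (adjusted p = 8.7e-09). NFIA, a transcription factor, changed by -0.18 at 50 nM (adjusted p = 0.077) and -3.13 at 5 nM. The serotonin receptor gene HTR1F fell by 0.32 at 50 nM and 3.23 at 5 nM. GRK5, a receptor kinase, fell by 0.32 at 50 nM and dropped by 3.11 at 5 nM. TPTE2 changed by -0.02 at 50 nM (adjusted p = 0.95) and RSRC1 by 0.16 (adjusted p = 0.47), and at 5 nM they changed by -2.90 and -2.64. At the other end stood 6 shorter genes that rose at 5 nM, of which 5 fell at 50 nM. RPP38, given above, is one of those 5. ZNF670, a zinc-finger gene, read 7.70 and 7.51 with DMSO and 5.69 and 5.28 at 50 nM, a fall of 2.12. At 5 nM it rose by 1.16. PUS3, a pseudouridine synthase, fell by 1.38 at 50 nM and rose by 1.63 at 5 nM, and ZNF845 fell by 1.86 and rose by 0.96. TRIB1, a pseudokinase of the MAPK pathway, fell by 1.50 at 50 nM and rose by 1.28 at 5 nM. NR4A2, an inducible nuclear receptor, rose at both doses, by 0.71 at 50 nM and 3.51 at 5 nM. Over all genes 797 were higher and 1224 lower at 50 nM than at 5 nM by the fold rule, and 3973 (21.6%) were higher and 4253 (23.1%) lower at an adjusted p under 0.05.

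Genes with a ZNF symbol, most of them C2H2 zinc-finger transcription factors, lost signal in large numbers. Many of these factors silence transposons and other genes, and their messages are known to be short-lived. Of 480 measured ZNF genes 289 fell and 35 rose, 122 were lower by over 2-fold and 0 were higher, and the median change was -0.52 against 0.098 over all genes tested. The lower share was 25.4%, beside 5.38% of all genes. ZNF322 went from 8.52 and 8.57 to 6.21 and 6.41, a fall of 2.24 ± 0.16 (SE, n = 2 arrays per group; adjusted p = 1.2e-06), ZNF623 fell by 2.16 and ZNF253 by 2.15. ZNF572 and ZNF425 were the exceptions with the largest rises, 0.97 and 0.93, and were named after their values were seen. Without DMSO array 1 or 2, 20 and 22 of the list rose and 254 and 267 fell. At 5 nM more members rose than fell, 212 against 81, and the median was 0.21, and 315 of 480 were lower at 50 nM than at 5 nM in the direct test. Of these genes 233 lie on chromosome 19, where 147 fell and the median was -0.58, and 247 lie elsewhere, where 142 fell and the median was -0.42. Without the ZNF genes, 1.78% of the coding genes of chromosome 19 were lower by over 2-fold, compared with 6.72% with them.

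Regulators of chromatin and of the cell cycle fell more often than they rose, beside 23.3% of all genes falling and 25.8% rising. Among 67 chromatin regulators 50 fell and 2 rose, with a median of -0.64 and 23 lower by over 2-fold. KMT2E, a member of the trithorax family, went from 10.31 and 10.25 to 8.17 and 8.29. KDM5B, a histone H3 lysine demethylase, fell by 1.97 and ARID1A, a SWI/SNF subunit, by 1.94. This list is made of long genes, with a median span of 100.8 kb, and its median at 5 nM was -0.89. HDAC3 and HDAC1, the histone deacetylases, rose by 0.35 and 0.28; they are named for being the list's 2 rises. Of 51 mitosis genes 40 fell and 4 rose, with a median of -0.64. FBXO5, an inhibitor of the anaphase-promoting complex, fell by 1.76 at 50 nM and rose by 0.93 at 5 nM. ASPM, NDC80 and KIF23, which serve the spindle, the kinetochore and cytokinesis, fell by 1.66, 1.65 and 1.60 at 50 nM. BIRC5 and PTTG1, which encode survivin and securin, were among the 4 that rose, by 0.50 and 0.46. Of 78 E2F and DNA replication genes 41 fell and 8 rose, with a median of -0.32. Their median DMSO signal was 9.92. The share that fell was 52.6%, beside 44.3% of all coding genes with a mean signal of 9 to 10. E2F3 fell by 1.81, POLD3, a DNA polymerase delta subunit, by 1.35 and DTL, an adaptor of a ubiquitin ligase, by 1.33, while RPA3, the smallest subunit of replication protein A, rose by 1.00. Among 18 cyclins and CDK inhibitors 7 fell and 6 rose with a median of -0.03. CDC25A and CCNB1 fell by 1.21 and 1.09. In that list 3 rose without 50 nM array 1, 2 without DMSO array 1, and 7 against 6 falls without DMSO array 2. No chromatin regulator rose without 50 nM array 1, and 1 did without DMSO array 2.

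The transcription machinery itself was divided, where 23.3% of all genes fell and 25.8% rose. Of 39 genes for RNA polymerase II and general factors 17 fell and 12 rose, or 20 and 5 after the centring on ribosomal protein genes. The median change was 0.04 and the median DMSO signal 9.45. The 43.6% that fell is near the 44.3% of all coding genes with a mean signal of 9 to 10. The losses included factors that start transcription: GTF2B, the bridge between promoter and polymerase, went from 10.15 and 10.11 to 8.66 and 8.65, a fall of 1.48 against a rise of 0.80 at 5 nM. TBP, the TATA-binding protein, fell by 1.06, TAF5 by 1.43 and GTF2E1 by 1.63. Elongation factors leaned further down, with 19 of 31 falling, 2 rising and a median of -0.32. LEO1, a subunit of the PAF complex, fell by 1.52 and CDK13 by 1.44. Of 49 genes for RNA polymerase I and ribosome biogenesis 27 fell and 3 rose with a median of -0.33, whereas 25 rose and 13 fell at 5 nM. POLR1B, the second largest subunit of RNA polymerase I, went from 10.11 and 10.15 to 7.99 and 8.18, a fall of 2.05, and its change at 5 nM was 0.02 (adjusted p = 0.89). WDR75 and DDX10, both ribosome assembly factors, fell by 1.81 and 1.58. Splicing regulators lost signal in 19 of 34 cases, with a median of -0.26 and SRSF4 falling by 1.27. Decay regulators of mRNA fell in 18 of 33, with CNOT2, a subunit of the main deadenylase, falling by 1.63. Median DMSO signals were 9.96 for elongation factors, 9.9 for ribosome biogenesis and 9.71 for decay regulators. Of these lists 61.3%, 55.1% and 54.5% fell, beside 44.3% of all coding genes with a mean signal of 9 to 10. Of 9 topoisomerases and related enzymes 5 fell and 0 rose. TOP2A, which untangles DNA in dividing cells, went from 10.69 and 10.67 to 9.92 and 9.78. Without 50 nM array 2, 1 gene of that list rose, and 1 elongation factor rose without either 50 nM array or DMSO array 1.

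Inducible short-lived messages were not uniformly lost, to be read against 25.8% of all genes rising and 23.3% falling. Of 38 immediate-early genes, which are induced without new protein synthesis, 20 rose and 12 fell, and the median was 0.28 against 1.03 at 5 nM, where 34 rose. Centred on ribosomal protein genes, 13 rose and 17 fell and the median was 0.02. In the direct test 32 of the 38 were lower at 50 nM than at 5 nM. KLF4, a Kruppel-like transcription factor, went from 5.61 and 5.34 to 6.72 and 7.14, a rise of 1.46. MYC, the growth-promoting transcription factor, went from 11.02 and 11.00 to 9.42 and 9.56, a fall of 1.52, against a rise of 0.33 at 5 nM. Feedback inhibitors of MAPK signalling fell in 9 of 17 cases, with a median of -0.39, which was -0.25 without 50 nM array 2. DUSP6 and DUSP7, the ERK phosphatases, fell by 1.31 and 1.33, SPRY4 by 1.31 and SPRED2 by 1.64. At 5 nM the first 3 of these rose, by 0.51, 0.79 and 0.82. Of 24 NF-kB targets 9 rose and 3 fell, or 4 and 8 after the centring. The 3 were REL, NFKBIA and NFKB1, components of the pathway, and fell by 1.58, 1.28 and 1.24.

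Stress and death programmes were mixed, to be read against 25.8% of all genes rising and 23.3% falling. Of 32 p53 targets 12 rose and 10 fell, or 5 and 16 after the centring on ribosomal protein genes, with a median of -0.01 against 0.39 at 5 nM. Beside PLK2 and SAT1, PPM1D, the phosphatase that shuts off the p53 response, fell from 9.65 and 9.56 to 7.39 and 7.53, by 2.14, and SESN1 fell by 1.03. In the BCL2 family 7 of 18 genes rose and 5 fell, or 2 and 10 after the centring. PMAIP1, which encodes NOXA, rose by 1.03 against 2.24 at 5 nM, and BBC3, which encodes PUMA, rose by 0.70, while the antiapoptotic BCL2L1 and BCL2 fell by 0.62 and 0.61. Of 26 apoptosis and caspase genes 16 fell and 4 rose. FADD, the death receptor adaptor, read 10.13 and 9.75 with DMSO and 8.13 and 8.80 at 50 nM, where the 50 nM arrays lay further apart than the DMSO arrays, and TNFRSF1A fell by 1.44. The unfolded protein response had 10 of 29 genes falling and 5 rising, with TRIB3 falling by 1.59 and CEBPB by 1.55. Its median DMSO signal was 9.98. Falls were 34.5%, below the 44.3% of all coding genes with a mean signal of 9 to 10. Among 35 interferon-stimulated genes 9 rose and 4 fell, or 5 and 12 after the centring. The rises made up 25.7% of that list, near the share of all genes. Among 24 genes of cholesterol and fatty acid synthesis 5 rose (20.8%) and 7 fell (29.2%), SQLE, squalene epoxidase, by 1.71. Both shares were near those of all genes. The median DMSO signal of this list was 9.7, and of all coding genes with a mean signal of 9 to 10, 44.3% fell and 23.9% rose. Chaperones fell in 7 of 23 cases and rose in 1, with DNAJB1 falling by 0.96. Single arrays moved several of these counts. The p53 targets had 7 rises and 9 falls without 50 nM array 1, 8 and 10 without 50 nM array 2, 7 and 10 without DMSO array 1, and 9 and 9 without DMSO array 2. The BCL2 family had 3 and 4 without 50 nM array 1 and 4 and 4 without DMSO array 1. Apoptosis genes had 2 rises without DMSO array 1, and cholesterol genes 2 without 50 nM array 1. Interferon-stimulated genes had 2 falls without 50 nM array 2 or DMSO array 1. Chaperones had 4 falls without either 50 nM array, and 4 falls and 2 rises without DMSO array 2.

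Messages of housekeeping proteins differed by class, to be read against 25.8% of all genes rising and 23.3% falling. Of 70 nuclear genes of oxidative phosphorylation 50 rose and 1 fell, the median was 0.35, and 23 still rose when the values were centred on ribosomal protein genes, against 7 that fell. UQCRB, a subunit of complex III, went from 6.72 and 6.74 to 8.27 and 8.39, a rise of 1.60 ± 0.14 (SE, n = 2 arrays per group; adjusted p = 4.9e-06). NDUFA1 rose by 0.86, ATP5ME by 0.78 and COX7B by 0.71. Of 58 cytoplasmic ribosomal proteins 31 rose and 0 fell, with a median of 0.24; after the centring, which sets their mean to 0, 8 rose and 9 fell. RPL32 rose by 0.94 and RPS21 by 0.74. Mitochondrial ribosomal proteins differed, with 30 of 73 falling, 15 rising and a median of -0.14. Their median DMSO signal was 9.81. The 41.1% that fell is near the 44.3% of all coding genes with a mean signal of 9 to 10. MRPL46, for one, fell by 1.44. Cytoskeletal genes rose in 12 of 26 cases and collagen and matrix genes in 13 of 30, with 1 and 0 falling, led by MYL12A (0.61) and BGN (0.65), but under the centring these counts became 2 rising and 8 falling, and 3 rising and 8 falling. Glycolysis had 9 of 17 genes rising and 2 falling, or 2 and 4 after the centring, with ALDOC rising by 1.31 and SLC2A1, the glucose transporter, falling by 0.61. Translation factors had 11 of 36 rising and 8 falling, or 2 and 19 after it, EIF3E falling by 0.78. Proteasome subunits had 8 of 29 rising and 7 falling, or 1 and 15 after it, PSMA5 falling by 0.59. As shares, 30.6% of translation factors rose and 22.2% fell, and 27.6% of proteasome subunits rose and 24.1% fell, near the shares of all genes. Leaving out single arrays moved the shorter lists. Glycolysis had 5 rises and 1 fall without 50 nM array 1, 6 and 1 without DMSO array 1, and 5 and 2 without DMSO array 2. Translation factors had 7 and 6 without DMSO array 1 and 5 and 6 without DMSO array 2. Proteasome subunits had 4 and 5 without either 50 nM array, 5 and 5 without DMSO array 1, and 5 and 7 without DMSO array 2. Cytoskeletal genes had 7 rises without 50 nM array 1 and 2 falls without DMSO array 1, and matrix genes 7 rises without 50 nM array 2.

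Genes that the EWS-FLI1 fusion activates fell more often than they rose in both lists of them. Over all genes 23.3% fell and 25.8% rose. The median DMSO signal was 9.08 in the study's signature and 10.96 in the literature list, of which 66.0% and 48.8% fell. Of all coding genes with a mean signal of 9 to 10, 44.3% fell, and of those at 10 to 11, 34.8%. FLI1 read 8.59 and 8.61 with DMSO and 7.71 and 7.60 at 50 nM, a fall of 0.95 ± 0.09 (SE, n = 2 arrays per group; adjusted p = 1.7e-05), and its change at 5 nM was -0.08 (adjusted p = 0.48). The arrays do not separate the fusion from unfused FLI1. EWSR1 rose by 0.20 with an adjusted p of 0.048, and the sign turns to -0.06 under the centring on ribosomal protein genes. The EWS-FLI1 signature of the study was chosen on arrays of this series and so is no independent evidence of its direction. In it 62 of 94 measured genes fell and 13 rose, with a median of -0.48. At 5 nM 53 of these genes fell and 27 rose, with a median of -0.41. In the direct test 36 were higher and 45 lower at 50 nM than at 5 nM. NKX2-2, a homeobox factor that marks Ewing sarcoma, went from 9.85 and 9.81 to 7.52 and 7.72, a fall of 2.21, whereas its change at 5 nM was 0.03 (adjusted p = 0.85). BARHL2, another homeobox gene, fell by 1.52. Of 43 genes that literature lists as activated by EWS-FLI1 21 fell and 8 rose, with SOX2 falling by 1.88. The median of this list was -0.31, against -0.42 at 5 nM, where 26 fell and 7 rose. Between the doses 22 were higher and 10 lower at 50 nM in the direct test. Of 42 listed as repressed 26 rose and 5 fell, with a median of 0.27, but 8 rose and 8 fell after the centring. DKK1 and LGALS1 rose by 0.80 and 0.77, and TGFBR2, CDH11 and ITGA5 fell by 0.82 each. Among repressed genes 17 rose without DMSO array 1 and 3 fell without DMSO array 2. Rises in the signature numbered 6 without 50 nM array 1 and 7 without DMSO array 2, and among activated genes 3 without 50 nM array 1.

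Replication-dependent histones have messages that end in a stem-loop in place of a poly(A) tail. They fell in 31 of 56 cases and rose in 16, and the median was -0.50. Beside them, 23.3% of all genes fell and 25.8% rose. The size of the median depended on the setting. It was -0.24 against the untreated arrays, -0.31 after a further quantile normalization and -0.76 centred on ribosomal protein genes. At 5 nM 15 of these histone genes rose and 13 fell. H1-5, a linker histone, went from 11.87 and 11.79 to 10.03 and 9.69, a fall of 1.96, and H1-3, H4C2 and H3C12 fell by 1.88, 1.72 and 1.68. H2BC14 fell by 1.10 from 13.44 and 13.40. H2AC14, H2BC26 and H2AC17 went against the list, rising by 1.37, 1.16 and 1.09, and were named after their values were seen. Histone genes are near-identical copies of each other, and probe sets may share signal between them.

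Structural and small RNAs made up a large part of the gains. Their counts are to be read against 25.8% of all genes rising and 23.3% falling. Of the 110 higher genes 52 were protein-coding, 23 lncRNAs, 17 snoRNAs and 6 scaRNAs, although coding genes were 16894 of the 18404 tested. Among lncRNAs 215 of 626 rose and 48 fell, and among snoRNAs 72 of 175 rose and 17 fell; their medians, 0.21 and 0.22, turned to -0.05 and -0.04 when centred on ribosomal protein genes. Small Cajal body RNAs (scaRNAs), which guide the modification of spliceosomal RNAs, had the highest median of the lists measured, 0.94, with 10 of 16 rising and 1 falling. After the centring 10 rose and 3 fell with a median of 0.68. Without DMSO array 2 the median was 0.63, without 50 nM array 2 it was 0.79, and without DMSO array 1 it was 1.0. SCARNA7 went from 7.95 and 7.69 to 9.55 and 9.53, a rise of 1.72 ± 0.16 (SE, n = 2 arrays per group; adjusted p = 8.7e-06). SCARNA6 and SCARNA5 rose by 1.44 and 1.34 and SCARNA12 by 1.11, although the DMSO arrays of SCARNA12 lay as far apart as 10.83 and 9.79. SCARNA4 fell by 0.94. Box H/ACA snoRNAs, which guide pseudouridylation, rose in 28 of 61 cases and fell in 5, led by SNORA13 (1.32), SNORA57 (1.26) and SNORA52 (1.25). Box C/D snoRNAs, which guide ribose methylation, rose in 45 of 115 cases and fell in 12. In the direct test 41 were lower at 50 nM than at 5 nM, where 74 rose against DMSO. SNORD75 rose by 1.67, and SNORD78 fell from 9.22 and 8.80 to 7.62 and 7.67, against a rise of 1.34 at 5 nM. After the centring the counts were 18 rising and 12 falling for H/ACA and 22 rising and 20 falling for C/D RNAs, and 6 C/D RNAs fell without DMSO array 1. Among RNA polymerase III products 3 of 7 rose and 0 fell: RPPH1, the RNA of RNase P, rose from 10.40 and 10.32 to 11.67 and 11.62, RNU6ATAC by 0.66 and RMRP, the RNA of RNase MRP, by 0.61. TERC, the telomerase RNA, rose by 1.14. Of 11 spliceosomal snRNAs 5 rose and 3 fell, RNU11 and RNU12 of the minor spliceosome by 0.71 and 0.69, with RNU4ATAC falling by 0.56. Those counts were 3 and 3 without 50 nM array 1 or DMSO array 2, and 4 and 1 without DMSO array 1. Among long nuclear RNAs MALAT1 rose by 0.29 and MEG3 by 0.32, TUG1 fell by 0.25 and JPX by 1.44.

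Many small RNAs are processed from introns of larger genes, and their signal parted from that of the gene whose span holds them. Of 14 scaRNAs that lie inside the span of a measured gene in RefSeq, 13 had a higher change than that gene. This count and those below take a difference of any size and were not tested. SCARNA4 (-0.94 against -0.99 ± 0.09 SE) and SCARNA8 (-0.19 against -0.22 ± 0.13 SE) barely differed from their enclosing genes. The median was 0.84 for the scaRNAs and -0.25 for the 13 enclosing genes, of which 7 fell and 0 rose. SCARNA5 and SCARNA6 lie within ATG16L1, an autophagy gene, which fell by 1.67, and SCARNA9, which rose by 1.02, within CEP295, a centriole gene, which fell by 1.71. SCARNA4 moved with KHDC4, which fell by 0.99, but SNORA80E, within the same gene, rose by 1.19. Of 82 snoRNAs inside a gene 57 had the higher change. The median was 0.22 against -0.03 for 62 enclosing genes, of which 24 fell and 16 rose. MicroRNA precursors, most of them dim, did likewise in 59 of 81 cases, with a median of 0.23 against 0.09 for 67 enclosing genes. Whether short or dim probe sets share an upward offset was not tested. SNORA37 rose by 1.07 within MBD2, which fell by 0.86, and SNORA71A and SNORA71C rose by 0.91 and 0.98 within SNHG17, a snoRNA host lncRNA that fell by 0.68. Among the 6 measured genes listed as snoRNA hosts 2 rose and 2 fell. Strand was not compared, and signal of a short probe set can include the unspliced transcript around it.

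MicroRNA precursors rose in 62 of 173 cases and fell in 11, with a median of 0.23, and after the centring 16 rose and 25 fell. As shares, 35.8% rose and 6.36% fell, beside 25.8% and 23.3% of all genes. Without 50 nM array 2, 37 rose and 7 fell, and without DMSO array 1, 43 and 7. A further quantile normalization gave 44 rising, 18 falling and a median of 0.11. Most of these probe sets were dim: 20 of 173 passed the 40th percentile of mean signal. The arrays read the gene region of a precursor and not the mature microRNA. Of the 8 precursors that changed by over 2-fold, 7 have mature entries in RefSeq (GRCh38.p14), with 11 sequences and 11 distinct seeds. The sequences of the 4 precursors with the largest changes among those 7 are given, 1 for each, with the seed (bases 2 to 8 from the 5′ end) in capitals:
hsa-miR-301a-3p (chr17:59151149-59151171, minus strand): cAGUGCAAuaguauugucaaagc
hsa-miR-9-5p (chr1:156420392-156420414, minus strand): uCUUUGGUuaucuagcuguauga
hsa-miR-15b-5p (chr3:160404607-160404628, plus strand): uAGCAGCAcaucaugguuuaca
hsa-miR-32-5p (chr9:109046272-109046293, minus strand): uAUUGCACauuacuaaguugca
MIR301A went from 3.41 and 3.19 to 5.39 and 5.54, a rise of 2.16, and lies within SKA2, which rose by 0.32. MIR9-1 went from 4.19 and 4.05 to 5.73 and 6.17 and MIR15B from 4.73 and 4.02 to 5.86 and 6.41. MIR15B lies within SMC4, a condensin subunit, which fell by 0.38. MIR32 fell from 5.54 and 5.06 to 3.81 and 3.74 while TMEM245, which holds it, rose by 0.23. In all 4 the groups did not overlap, which their choice by fold and adjusted p makes likely and so adds no support. All their values lay below the array medians.

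Coding genes that were lower and higher by over 2-fold differed in span and promoter letters. The median span was 45.7 kb for the 970 lower genes, 4.77 kb for the 52 higher genes and 27.3 kb for all coding genes. RefSeq promoters of 250 bases before to 50 after the start were matched for 828 lower, 46 higher and 13765 coding genes. Their median GC content was 65.0%, 61.7% and 63.3%, and Spearman's rho between promoter GC and change was -0.079 over all 13765 genes and 0.005 over the 6319 with a mean signal above 8. The drug's preferred dinucleotide, GpC, occurred a median of 33.0, 29.5 and 30.0 times, with a rho of -0.122 over all genes and -0.025 over those above 8. The letters TATAAA, searched on both strands in the 50 bases before the start, stood in 8 of 46 higher promoters (17.4%), in 18 of 828 lower promoters (2.17%) and in 585 of all 13765 (4.25%). The higher genes were chosen by the same contrast, so these shares are descriptions. The 8 were GADD45B, PTGS2, ADM, H2AC14, CXCL8, RPL22L1, H2AC17 and LEAP2. The 100 bases before the start are shown for the 3 of them with the largest rises and for CXCL8, which encodes interleukin-8, as RefSeq (GRCh38.p14) gives them 5′ to 3′ on the gene's strand, with the motif in capitals:
GADD45B (chr19:2476027-2476126, plus strand): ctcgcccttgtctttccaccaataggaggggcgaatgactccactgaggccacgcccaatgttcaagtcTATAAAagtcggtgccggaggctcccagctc
PTGS2 (chr1:186680424-186680523, minus strand): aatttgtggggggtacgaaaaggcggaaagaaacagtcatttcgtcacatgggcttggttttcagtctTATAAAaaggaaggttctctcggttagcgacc
ADM (chr11:10304973-10305072, plus strand): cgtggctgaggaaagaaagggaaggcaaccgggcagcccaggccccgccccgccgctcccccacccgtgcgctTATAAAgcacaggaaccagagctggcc
CXCL8 (chr4:73740469-73740568, plus strand): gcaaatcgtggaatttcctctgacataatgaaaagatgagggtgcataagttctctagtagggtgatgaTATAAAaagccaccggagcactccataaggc
The first letter of the motif lies at -31 in GADD45B, -32 in PTGS2, -27 in ADM and -31 in CXCL8, counted from the start. ADM, the vasodilator peptide adrenomedullin, rose by 1.41 and CXCL8 by 1.17. A match of letters does not show a site in use.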

How the data were processed

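RNA of A673 cells was measured on 12 Affymetrix HuGene 1.0 ST arrays, 2 in each of 6 groups, which were taken from the labels. As deposited, the values are on the log2 scale: the authors applied RMA (background correction, quantile normalization and summary per probe set) through the affy package, whose version was not given in the sources used here. They are relative levels, with no detection call, and were used as deposited. No column was left without a sample, and the number of arrays limits the precision.

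Of 32321 rows 19158 carried a single gene symbol, 1388 several and 11775 none. The probe set with the highest mean stood for each of 637 genes with several, which left 18404 genes, of which 18376 were matched to RefSeq (GRCh38.p14). Group means over all 12 arrays were fitted with limma 3.58.1 in R 4.3.3 (6 residual and 4.45 prior degrees of freedom) and p-values adjusted by Benjamini-Hochberg over all genes. Higher and lower mean a fold over 2 and an adjusted p under 0.01; rose and fell mean an adjusted p under 0.05. The fit was tested on simulated data.

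The genes, the 47 gene lists and the tests were chosen with earlier results of these data known. The lists come from general knowledge, apart from the signature of the study; of 15 mitochondrially encoded genes none was measured. Named were the 12 largest rises and falls with arrays that do not overlap, the 6 brightest probe sets with DMSO, the 4 largest changes of a list (for RNA classes also the 4 brightest members), 6 genes the study measured singly, of which 2 are measured here, and the 6 largest differences between doses each way. Others are marked or serve as examples chosen after their values were seen. Spans, hosts, promoters and microRNA sequences come from RefSeq tables.

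Alternatives were a block for the replicate number, a fit restricted to the 4 arrays, untreated arrays as control, genes below the 40th percentile left out, the mean over probe sets, all rows, a further quantile normalization, centring on 58 ribosomal protein genes or on the median, eBayes with trend and robust estimation, and each array left out.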

Additional observations from a re-analysis of the deposited data

Results flagged for a closer look

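Probe sets without a gene symbol were not part of the comparison, and more of them changed at 50 nM than between DMSO and untreated cells. Of 11775 such rows 485 were higher (4.12%) and 413 lower (3.51%) by over 2-fold at 50 nM against DMSO, by limma fitted on all rows, with changes from -5.42 to 4.39. Between DMSO and untreated cells 0 of them were higher and 0 lower, and at 5 nM 418 were higher and 157 lower. What these probe sets target is not paired with them in the tables used here.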

How the results depend on the processing

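With the replicate number as a block 109 genes were higher and 990 lower at 50 nM against DMSO, and 798 and 1224 at 50 nM against 5 nM. The numbers do not pair the arrays: deviations of same-numbered arrays correlated at -0.453 to 0.335 between groups and at 0.0486 between 50 nM and DMSO, so the samples share only a number. The counts at 50 nM against DMSO moved by over 1.5 times in 3 settings. Without dim genes, where fewer genes are tested, 71 were higher. Over all rows, where more are tested, 640 were higher and 1493 lower. Centred on ribosomal protein genes 55 were higher and 1720 lower, and the cause was not tested. The other settings gave 108 to 144 higher and 758 to 990 lower genes. Leaving out each array gave 102 to 133 higher and 957 to 1048 lower, and 729 to 911 higher and 1124 to 1332 lower at 50 nM against 5 nM. All 24 of the largest changes kept their direction and call in every setting that held the gene. Of 41 list medians 23 kept their sign in every setting; 15 turned under ribosomal protein centring and at most 4 in any other. Of the 41 lists, the larger of the counts of rises and falls moved by over 1.5 times in 23 under ribosomal protein centring, in 4 under median centring, in 3 with the 4 arrays alone, in 3 against untreated arrays and in 2 without dim genes. It did so in 4 to 7 lists when 1 array was left out, and in 0 under the other settings. EWSR1 kept its direction but lost its call in 7 settings, with adjusted p from 0.052 to 0.24, and reversed to -0.06 under ribosomal protein centring. Of the brightest genes GAPDH reversed to -0.15 and RPS28 to -0.17 under ribosomal protein centring. FAF2 reversed to 0.04 against untreated arrays and 0.03 under median centring, and TUBB to 0.0034 under median centring. Under ribosomal protein centring TUBB, FAF2 and RPS28 gained a call as falls, with changes of -0.34, -0.31 and -0.17. With 2 arrays per group no difference within the spread of these values is detectable.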
